A study of Mus musculus with 96 samples.

Results

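Neat1, Malat1, Meg3, Rian, Mirg, Miat and Snhg11 are long noncoding RNAs that are known from other work to be kept, or to act, in the nucleus. These 7 genes were taken as a named list from the 39179 genes in the deposited tables, were matched by Ensembl identifier, and were not chosen by their level. All 7 were found and passed the filter on low counts at both ages, and none had a library at 0. The libraries hold RNA from whole tissue, so where in the cell the RNA lay was not measured here. In bulk tissue, fewer cells of a type and less RNA per cell cannot be told apart.

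The samples were 96 mRNA libraries from the cerebellum of C57BL/6 mice at 6 and 10 months of age. Knock-in mice were heterozygous for an allele of Htt, the Huntington's disease gene, with a labelled CAG repeat length of 140 (Q140), 92 (Q92), 50 (Q50) or 20 (Q20). The wild types were housed with Q50 mice (WT50) or with Q20 mice (WT20). Each of these 6 groups had 8 libraries at each age, 4 from females and 4 from males, which gives 48 libraries an age. Wild types from the cages of the longer repeats were not analysed here, so a long repeat cannot be told apart from a different cage or cohort. Library numbers also differ between the ages, so age cannot be told apart from the set of libraries. The labels do not say that every library came from a different mouse, and p-values then measure only the spread between these libraries, which may be technical.

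As background, the long form of Neat1 is the RNA scaffold of paraspeckles, nuclear bodies that hold RNA-binding proteins, and Malat1 is an abundant RNA of nuclear speckles, where splicing factors gather. Both genes lie next to each other, and long Neat1 and mature Malat1 end in a triple helix of U-rich and A-rich stretches in place of a poly(A) tail. A shorter form of Neat1 lacks this end and has a poly(A) tail, and the values here are per gene and do not separate the forms. Meg3, Rian and Mirg are transcribed in one direction from the maternal copy of the imprinted Dlk1-Dio3 domain and host many small RNAs. Miat, also called Gomafu, is a neuronal RNA that binds splicing factors, and Snhg11 is a host gene of small nucleolar RNAs.

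Part of the stretch that forms the triple helix is shown for Neat1 and Malat1, because the helix is a feature for which both RNAs are known. Each was cut at 80 bases, so it need not hold every strand of the helix. In the GENCODE M21 transcripts (GRCm38), the Neat1 stretch is the last 80 bases of Neat1-201, at chr19:5824708-5824787 on the minus strand. The Malat1 stretch is bases 6612 to 6691 of Malat1-201, at chr19:5795982-5796061 on the minus strand, and lies inside this annotated transcript of 6983 bases. Capitals mark AAAAGCAAAA, the last 10 bases of that Neat1 transcript, and its reverse complement TTTTGCTTTT, each of which is found 1 time in either transcript, was searched on the transcript's own strand and does not overlap the other.
Neat1: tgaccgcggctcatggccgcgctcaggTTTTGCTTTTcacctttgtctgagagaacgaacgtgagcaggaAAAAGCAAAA
Malat1: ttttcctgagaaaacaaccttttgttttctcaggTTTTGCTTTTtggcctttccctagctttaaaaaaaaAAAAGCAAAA
Of 55341 genes with a transcript, 3 held both motifs within 80 bases (0.00542%), namely Neat1, Malat1 and Retreg3.

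The Miat stretch is shown because it holds the repeat by which Miat is known to bind splicing factor 1. It spans 106 bases of Miat-205 at chr5:112216762-112216867 (GRCm38, minus strand), and capitals mark ACTAAC, searched on the transcript's own strand.
Miat: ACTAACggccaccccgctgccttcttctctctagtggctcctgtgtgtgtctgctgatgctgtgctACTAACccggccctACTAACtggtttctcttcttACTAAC
Miat-205 held 11 such matches, against 4 in Neat1, 1 each in Meg3, Mirg and Snhg11, and 0 in Malat1 and Rian. A window of this length with at least 4 matches was found in 7 of 52450 genes (0.0133%). The length was set by the shortest such window in Miat-205, so Miat is 1 of the 7 by that choice. The match is a description of letters and not of binding.

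Within the annotated spans of the imprinted RNAs, RefSeq (GRCm38.p6) places 26 mature miRNAs in Mirg, 6 in Rian and 3 in Meg3. These small RNAs were not measured by these libraries. A pair in Mirg shares its seed, bases 2 to 8, which is in capitals.
mmu-miR-453: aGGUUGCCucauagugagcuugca
mmu-miR-496a-5p: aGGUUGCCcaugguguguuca
No other seed was shared within a host among these miRNAs.

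In GENCODE M21 (GRCm38), Neat1 (ENSMUSG00000092274) lies at chr19:5824708-5845478 and Malat1 (ENSMUSG00000092341) at chr19:5795690-5802672, both on the minus strand. On the plus strand of chromosome 12 lie Meg3 (ENSMUSG00000021268) at chr12:109541001-109571726, Rian (ENSMUSG00000097451) at chr12:109603940-109661716 and Mirg (ENSMUSG00000097391) at chr12:109729764-109749460. Miat (ENSMUSG00000097767) lies at chr5:112213228-112229395 on the minus strand. Its span overlaps Gm26953 on the opposite strand, and Malat1, Meg3 and Mirg each overlap 1 annotated gene on the opposite strand too. Since no strand setting is given, reads of such pairs cannot be told apart. Rian overlaps Gm26945 on its own strand, to which a median of 89.5 counts a library was assigned. Snhg11 (ENSMUSG00000044349) lies at chr2:158375638-158386145 on the plus strand and is annotated there as protein coding.

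The libraries held 29957797 to 39477325 assigned reads, with a median of 34251076, and no pair of libraries was identical. Markers of cerebellar cell types were present in every library: the summed level of 8 granule neuron markers was 2737 to 6604 CPM (counts scaled to a common library size, edgeR's TMM), and that of 8 Purkinje cell markers 5264 to 12899 CPM. Striatal neuron markers summed to 94.6 to 171 CPM and cortical neuron markers to 53.3 to 71.6 CPM. The share of counts from the 37 mitochondrially encoded genes was 6.35% to 12.7% at 10 months (median 6.75%) and 6.30% to 8.50% at 6 months (median 6.91%). One library stood apart, Q92 female 2 at 10 months, which alone lay at 12.7% while the other 47 of its age reached 8.13%. In that library granule neuron markers summed to 2737 CPM, the lowest of all libraries, and markers of astrocytes and Bergmann glia to 3658 CPM, the highest. Also the highest of all libraries there were the sums for cerebellar interneurons (1471 CPM), endothelial cells (300 CPM), microglia (148 CPM) and oligodendrocyte precursors (64.5 CPM). Results that rest on it are given with and without it. At 6 months, 11 of the 48 libraries lay far out on the leading axis of variation, with mitochondrial shares of 6.70% to 8.50%, and 1 of them was a Q140 library and 4 were Q20 libraries.

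Scaled by transcript length (FPKM), the 7 RNAs kept nearly the same order in every library. Meg3 was the highest at 551 ± 69.0 FPKM (SD, n = 96), followed by Snhg11 at 472 ± 59.5 FPKM and Rian at 408 ± 36.9 FPKM. Malat1 averaged 114 ± 19.2 FPKM, Neat1 65.2 ± 11.96 FPKM, Mirg 30.9 ± 5.72 FPKM and Miat 4.15 ± 2.38 FPKM. Meg3 and Snhg11 were the closest neighbours in this order: Meg3 was above Snhg11 in 87 of 96 libraries, and their ranges overlapped. Snhg11 was above Rian in 94 of 96 libraries, Rian above Malat1 in 96, Malat1 above Neat1 in 95, Neat1 above Mirg in 96 and Mirg above Miat in 96. These are levels in libraries enriched for mRNA, and how the enrichment acts on ends without a poly(A) tail was not tested.

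The RNAs differed widely in how steady they were. Rian had the smallest coefficient of variation of CPM, 6.92% over the 95 libraries without Q92 female 2, then Snhg11 with 10.0%, Meg3 with 10.1%, Mirg with 14.5%, Neat1 with 16.01% and Malat1 with 16.3%. Miat had 54.4%, and its highest library was 13.8-fold above its lowest in FPKM (18.4 against 1.33 FPKM). The plot of the members by group shows this spread, with 1 library low for all 7 RNAs.

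**Figure D1:**
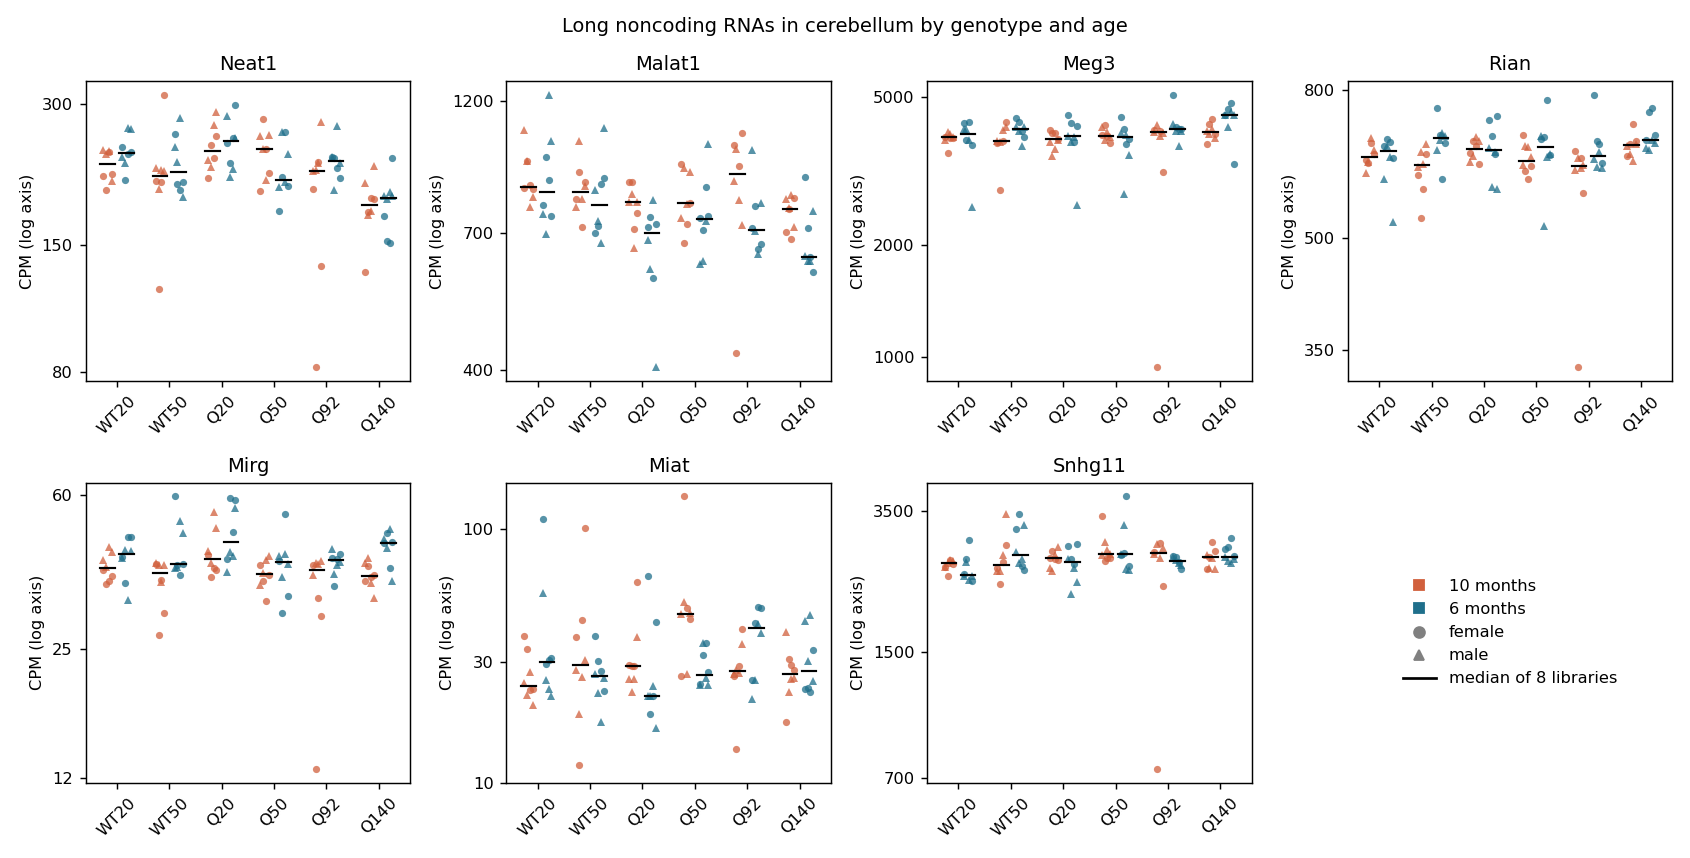
CPM on a log axis for each RNA in the 6 genotype groups, wild types and then rising CAG length, with 10 months left of 6 months in each group. Each point is 1 library (circle female, triangle male) and each black line is the median of 8 libraries. The group median of Neat1 is lowest in Q140 at both ages. A Q92 female library at 10 months is the lowest point for Neat1 at 82.0 CPM and for Meg3 at 939 CPM.

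Neat1, the RNA of paraspeckles, was the only member called between Q140 and Q20 in edgeR's fit of all 48 libraries with group and sex as terms. That call was made at 6 months only. At 6 months Neat1 ranged over 150.8 to 229.9 CPM in Q140 libraries (median 188.9) and over 209 to 298 CPM in Q20 libraries (median 250.3). All 8 Q140 libraries lay below the Q20 mean, and the ranges overlapped. The log2 difference was −0.44 ± 0.09 (SE) with an adjusted p of 0.00698 in edgeR's quasi-likelihood test. This made 1 of 7 members called, beside 0.164% of all 17120 genes tested. The call held in each of the other ways of computing it and in all 48 fits that left out 1 library, where the adjusted p ran from 0.00188 to 0.0380.

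At 10 months the standard error was larger. Neat1 ranged over 131 to 220.5 CPM in Q140 libraries (median 182) and over 208 to 288 CPM in Q20 libraries (median 238). Again all 8 Q140 libraries lay below the Q20 mean. The log2 difference was −0.42 ± 0.14 with an adjusted p of 0.103, so 0 of 7 members were called beside 1.99% of 17026 genes. At an unadjusted p under 0.05 there was 1 member, and DESeq2 and limma called 0. Without Q92 female 2, which is in neither group but enters the estimate of the spread, the adjusted p was 0.0183 (1 of 7 members, beside 4.48% of genes). With the mitochondrial share as a covariate it was 0.0150 (2 of 7 members, the other being Mirg, beside 5.5% of genes). Q92 female 2 lies far out in that share, so this is not a check apart from leaving that library out. The difference between the ages in the Q140 effect was 0.02 ± 0.16 on the log2 scale (adjusted p = 0.973), and 0 of 7 members were called in it beside 0% of all genes, with 0 members at an unadjusted p under 0.05.

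Q20 had the highest group mean of Neat1 at both ages, so the comparison with wild types is given beside it. Across WT20, WT50, Q20, Q50, Q92 and Q140, the mean was 238, 225, 248, 218, 226 and 184 CPM at 6 months, and 222, 211, 243, 236, 196 and 182 CPM at 10 months. Neighbours in this series differed by less than the larger of their SDs, except Q140 and Q92 at 6 months. Against all 16 wild types, Q140 was lower by −0.33 ± 0.07 on the log2 scale at 6 months (adjusted p = 0.0324; 1 of 7 members, beside 0.234% of genes). That call was lost without the filter on low counts (0.0561), in limma on FPKM (0.0605) and with the number in the library name as a term (0.0752), and 35 of 48 fits that left out 1 library called it. At 10 months the difference was −0.25 ± 0.12 with an adjusted p of 0.749 (0 of 7 members, beside 0.452% of genes; 2 at an unadjusted p under 0.05, 0 in DESeq2 and limma). These comparisons share the Q140 libraries with those against Q20.

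A trend over CAG length was fitted on the 32 knock-in libraries of each age. Neat1 fell by 0.31 ± 0.07 log2 units per 100 repeats at 6 months (adjusted p = 0.0485; 1 of 7 members, beside 0.391% of genes), and 14 of 32 fits that left out 1 library called it. At 10 months the slope was −0.38 ± 0.10 (adjusted p = 0.0668; 0 of 7 members, beside 1.02% of genes). Without Q92 female 2 the 10-month slope was −0.36 with an adjusted p of 0.00517 (1 of 7 members, beside 3.55% of genes), and DESeq2 gave 0.0210 with all libraries. Neat1 was not called in Q92 against Q20, where it differed by −0.14 ± 0.08 at 6 months (adjusted p = 0.290) and by −0.32 ± 0.14 at 10 months (adjusted p = 0.233), or by −0.20 without Q92 female 2 (0.460).

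Oligodendrocyte markers, genes of the myelin-forming glia, moved with Neat1. Of 12 such markers, 3 were called lower and 0 higher in Q140 than in Q20 at 6 months, beside 0.164% of all genes called. The median log2 difference of the 12 was −0.36 beside −0.013 over all genes. The 3 called were Mal (−0.46 ± 0.09, adjusted p = 0.0126), Aspa (−0.46 ± 0.10, 0.0205) and Cldn11 (−0.49 ± 0.11, 0.0482), which encode a membrane protein of myelin, the enzyme that breaks down N-acetylaspartate and a claudin of myelin tight junctions. At 10 months 6 of 12 were called lower and 0 higher, beside 1.99% of all genes called. The median was −0.44 beside −0.0027 over all genes. Mobp, a structural protein of myelin, differed by −0.55 ± 0.12 (adjusted p = 0.00758). Ugt8a, which makes myelin galactolipids, Mal, Aspa and Cldn11 were also lower. Without the far libraries 0 of the 12 were called at 6 months (median −0.31), beside 0.035% of genes with Neat1 among them, and 7 at 10 months, beside 4.48%.

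The summed level of the 12 markers showed the same groups apart. It ranged over 3446 to 5507 CPM in Q140 libraries at 6 months (median 4279) and over 4133 to 9197 CPM in Q20 libraries (median 5297). At 10 months it ranged over 3232 to 4569 CPM in Q140 libraries (median 4189) and over 4811 to 7058 CPM in Q20 libraries (median 5552), and these ranges did not overlap. Per 1000 CPM of the summed markers, a ratio chosen after its values were seen, Neat1 was at 42.7 ± 1.89 in Q140 and 44.4 ± 7.79 in Q20 libraries at 6 months (SD, n = 8 each). At 10 months this ratio was 44.4 ± 4.12 in Q140 and 42.9 ± 3.55 in Q20 libraries. The differences in the ratio were smaller than the SD within groups at both ages. Choroid plexus markers also differed at 6 months, with a median sum of 34.6 CPM in Q140 and 878 CPM in Q20 libraries. Purkinje cell markers had a median sum of 9746 CPM in Q140 and 7910.2 CPM in Q20 libraries at that age. The part of either list in the Neat1 result was not tested.

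Library by library, Neat1 followed the same markers. After the mean of each group and sex was taken away, its log2 CPM had a Pearson's r of 0.65 with the log2 marker sum over 96 libraries, and of 0.77 over the 95 without Q92 female 2. The r of Neat1 was −0.79 with the astrocyte and Bergmann glia markers and −0.61 with the Purkinje cell markers (−0.73 and −0.68 without that library). The points share libraries, depth and the make-up of the tissue piece. The genes most like Neat1 among 13122 were Map7 (r = 0.79), which encodes a microtubule-associated protein, S1pr5 (0.77), a sphingosine-1-phosphate receptor, and Srpk3 (0.76), a kinase of splicing factors. Without Q92 female 2 they were Cers2 (0.85), a ceramide synthase, Gjb1 (0.82), a gap junction protein, and Shtn1 (0.79).

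**Figure D2:**
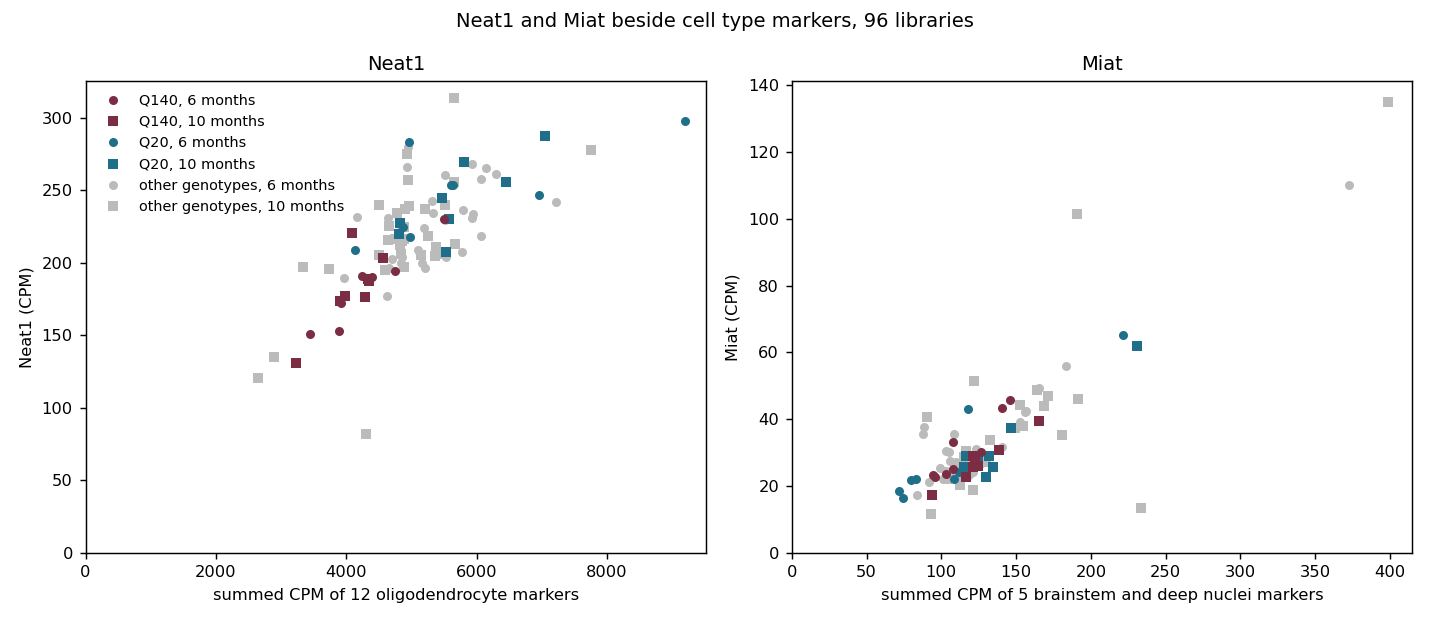
Left, Neat1 (CPM) against the summed CPM of 12 oligodendrocyte markers. Right, Miat (CPM) against the summed CPM of 5 brainstem and deep nuclei markers. Each point is 1 of 96 libraries, circles at 6 and squares at 10 months, with Q140 in dark red, Q20 in blue and other genotypes in grey. On the left, Q140 libraries at 10 months lie between 3232 and 4569 CPM of the markers, below the Q20 libraries of that age, and on the right the Q50 library with 135 CPM of Miat lies highest.

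The genes of proteins that share a body with Neat1 showed no called difference in RNA, and protein was not measured. Of 24 genes of paraspeckle proteins, 0 were called in edgeR, DESeq2 or limma between Q140 and Q20 at either age. At an unadjusted p under 0.05 there were 1 at 6 months and 3 at 10 months. The median log2 difference of the 24 was 0.025 at 6 months and 0.0089 at 10 months, beside −0.013 and −0.0027 over all genes. Of 14 other long noncoding RNAs that passed the filter, from a list of 27, 1 was called at each age, beside 0.164% and 1.99% of all genes at 6 and 10 months. It was Mirt1, lower in Q140 by −0.44 ± 0.08 at 6 months (adjusted p = 0.00443) and by −0.61 ± 0.14 at 10 months (adjusted p = 0.0137). Meg3 stands in that list too.

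Malat1, the speckle RNA, differed between Q140 and Q20 by 0.06 ± 0.12 on the log2 scale at 6 months (adjusted p = 0.767), where it was at −0.00099 without the far libraries, and by −0.04 ± 0.10 at 10 months (0.898). Its largest difference between genotype groups lay between Q20 and the wild types of its cages. At 6 months Malat1 ranged over 405 to 802 CPM in Q20 libraries (median 700, mean 659 ± 126) and over 698 to 1234 CPM in WT20 libraries (median 827, mean 884 ± 179). All 8 Q20 libraries lay below the WT20 mean. The log2 difference was −0.42 ± 0.12 with an unadjusted p of 0.000978 and an adjusted p of 0.613, so it did not pass the test over all genes. At 10 months it was −0.17 ± 0.10 (adjusted p = 0.639), with 784 ± 70.8 CPM in Q20 and 884 ± 93.0 CPM in WT20 libraries, and again 8 of 8 Q20 libraries below the WT20 mean. Malat1 was lower in Q140 than in the 16 wild types too, and no fit that left out 1 library called it. Over those fits the log2 difference ran from −0.36 to −0.26 at 6 months and from −0.20 to −0.16 at 10 months. The WT20 libraries are shared by these comparisons.

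None of the 22 genes of nuclear speckle proteins was called between Q140 and Q20 in edgeR, DESeq2 or limma. At an unadjusted p under 0.05 there were 2 at 6 months and 0 at 10 months. Neat1 and Malat1, neighbours on chromosome 19, had an r of 0.10 over 96 libraries within groups and of −0.19 over 95. The genes most like Malat1 were Gm21897 (r = 0.72), Gm26905 (0.70) and Gm17131 (0.63).

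The imprinted RNAs of chromosome 12 showed small differences with repeat length. Meg3 ranged over 3314 to 4826 CPM in Q140 libraries at 6 months (median 4467) and over 2557 to 4480 CPM in Q20 libraries (median 3917). Its log2 difference was 0.18 ± 0.09 (adjusted p = 0.205), and 7 of 8 Q140 libraries lay above the Q20 mean. At 10 months it was 0.08 ± 0.13 (adjusted p = 0.862). Rian, a host of small nucleolar RNAs, differed by 0.07 ± 0.05 at 6 months (0.372) and by 0.02 ± 0.07 at 10 months (0.947).

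Mirg, the miRNA host, differed between Q140 and Q20 by −0.12 ± 0.10 at 6 months (adjusted p = 0.423) and −0.18 ± 0.11 at 10 months (0.491). The sign turned at 6 months without the far libraries, to 0.10 (0.713), and the value stayed at −0.18 at 10 months (0.0943). At 10 months it ranged over 33.4 to 42.0 CPM in Q140 libraries (median 37.9) and over 37.8 to 54.4 CPM in Q20 libraries (median 41.7). All 8 Q140 libraries lay below the Q20 mean, and with the mitochondrial share as a covariate the difference was −0.22 with an adjusted p of 0.0253. No other alternative called Mirg in this comparison. That covariate is weighted by Q92 female 2, whose share was 12.7% against at most 8.13% in the other libraries. In Q92 at 6 months Mirg differed from Q20 by −0.24 ± 0.10 (unadjusted p = 0.0148, adjusted p = 0.165), with 8 of 8 Q92 libraries below the Q20 mean. This difference was −0.02 without the far libraries (adjusted p = 0.999).

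The list of the imprinted domain has 8 genes, of which 6 passed the filter and 3 are members, and 0 of 6 were called in edgeR, DESeq2 or limma between Q140 and Q20 at either age. At an unadjusted p under 0.05 there were 2 at 6 months and 0 at 10 months. Dlk1, the paternally expressed gene that gives the domain its name, differed by −1.94 ± 0.62 at 6 months with an adjusted p of 0.128. The RNAs of the domain varied together only in part. Within groups, Meg3 and Rian had an r of 0.85 over 96 libraries and 0.65 over 95, Rian and Mirg 0.62 and 0.28, and Meg3 and Mirg 0.52 and 0.0011. The link of Meg3 with Mirg thus rested on Q92 female 2.

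The genes most like Meg3 were Spaca6 (r = 0.93), Pnisr (0.92) and Tnrc6a (0.91), the last encoding a protein of miRNA silencing. Those most like Rian were Rbm25 (0.87), a splicing regulator, Ints6l (0.86) and Srek1 (0.85), another splicing regulator. Those most like Mirg were Ccnl2 (0.89), a cyclin of nuclear speckles, Slc2a4rg-ps and Rrnad1. Over the 95 libraries the highest r was 0.86 for Meg3 (Srrm2, a speckle scaffold protein), 0.69 for Rian (Sf3b1, a core splicing factor) and 0.82 for Mirg (Gm12940).

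Miat, the rarest member, varied most between libraries of 1 group. At 6 months it ranged over 22.8 to 45.7 CPM in Q140 libraries (median 27.6) and over 16.4 to 65.2 CPM in Q20 libraries (median 22.0). At 10 months it ranged over 17.3 to 39.4 CPM in Q140 libraries (median 26.9) and over 22.7 to 62.0 CPM in Q20 libraries (median 28.9). The log2 differences were 0.15 ± 0.26 (adjusted p = 0.726) and −0.23 ± 0.28 (0.791), so the standard errors were larger than the differences. The 6-month value turned to −0.09 without the far libraries.

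The libraries high in Miat were also high in markers of brainstem and deep cerebellar nuclei neurons. Of 7 such markers 5 passed the filter, while Hoxb5 and Chat, which mark hindbrain position and cholinergic neurons, did not. Within groups the r between Miat and the sum of the 5 was 0.71 over 96 libraries and 0.84 over 95. The highest Miat level was 135 CPM in Q50 female 2 at 10 months, where the marker sum was 399 CPM, the highest of all libraries. The next was 110.0 CPM in WT20 female 1 at 6 months, with a marker sum of 372 CPM, the next highest. WT50 female 4 at 10 months, at rank 3 with 101 CPM of Miat, was only at rank 7 in the marker sum, with 191 CPM. Over all libraries the sum ran from 71.5 to 399 CPM. Miat also had an r of 0.61 with the oligodendrocyte markers (0.64 over 95). With the astrocyte and Bergmann glia markers its r was −0.59 (−0.56 over 95). The part of these lists in the genotype comparisons of Miat was not tested.

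The genes most like Miat were Col11a1 (r = 0.88), a fibrillar collagen, Acan (0.81), the aggrecan of perineuronal nets, and Tmem132b (0.77). Without Q92 female 2 they were Meis2 (0.90), a homeodomain transcription factor, Gfra1 (0.88), a receptor for glial neurotrophic factor, and Col11a1 (0.88). Of the genes of 4 splicing factors known to bind Miat, 0 were called between Q140 and Q20 at 6 months in edgeR, DESeq2 or limma. At an unadjusted p under 0.05 there were 0. At 10 months 1 was called, beside 1.99% of all genes. It was Qk, which encodes the glial RNA-binding protein Quaking, at −0.15 ± 0.04 (adjusted p = 0.0257).

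Snhg11, the small nucleolar RNA host, differed by 0.09 ± 0.07 at 6 months (adjusted p = 0.392) and by 0.0020 ± 0.12 at 10 months (0.996) between Q140 and Q20. At 10 months it ranged over 2472 to 2913 CPM in Q140 libraries (median 2651) and over 2447 to 2816 CPM in Q20 libraries (median 2631), nearly the same span. Of the 13 small nucleolar RNA host genes that passed the filter, from a list of 22, 0 were called at either age in edgeR, DESeq2 or limma, with 4 at 6 months and 0 at 10 months at an unadjusted p under 0.05. Snhg11 was most like Zcchc7 (r = 0.88), Chfr (0.85) and Mir124a-1hg (0.85), the last a host of miR-124. Over the 95 libraries its highest r was 0.68 (Malt1).

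The other genotype comparisons called none of the 7 members in edgeR, DESeq2 or limma at either age. Beside this, 0.0117% and 0.2% of all genes were called for Q92 against Q20 at 6 and 10 months, 0.0117% and 0.0529% for Q50 against WT50, and 0.0117% at each age for Q20 against WT20. At an unadjusted p under 0.05 there were 1 and 3 members for Q92 at 6 and 10 months, 0 and 0 for Q50, and 2 and 0 for Q20. The 3 for Q92 at 10 months were Mirg, Rian and Neat1, all lower. There were also 3 without Q92 female 2, Mirg (−0.21), Rian (−0.07) and Malat1 (0.21), of which none passed the adjustment.

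**Figure D3:**
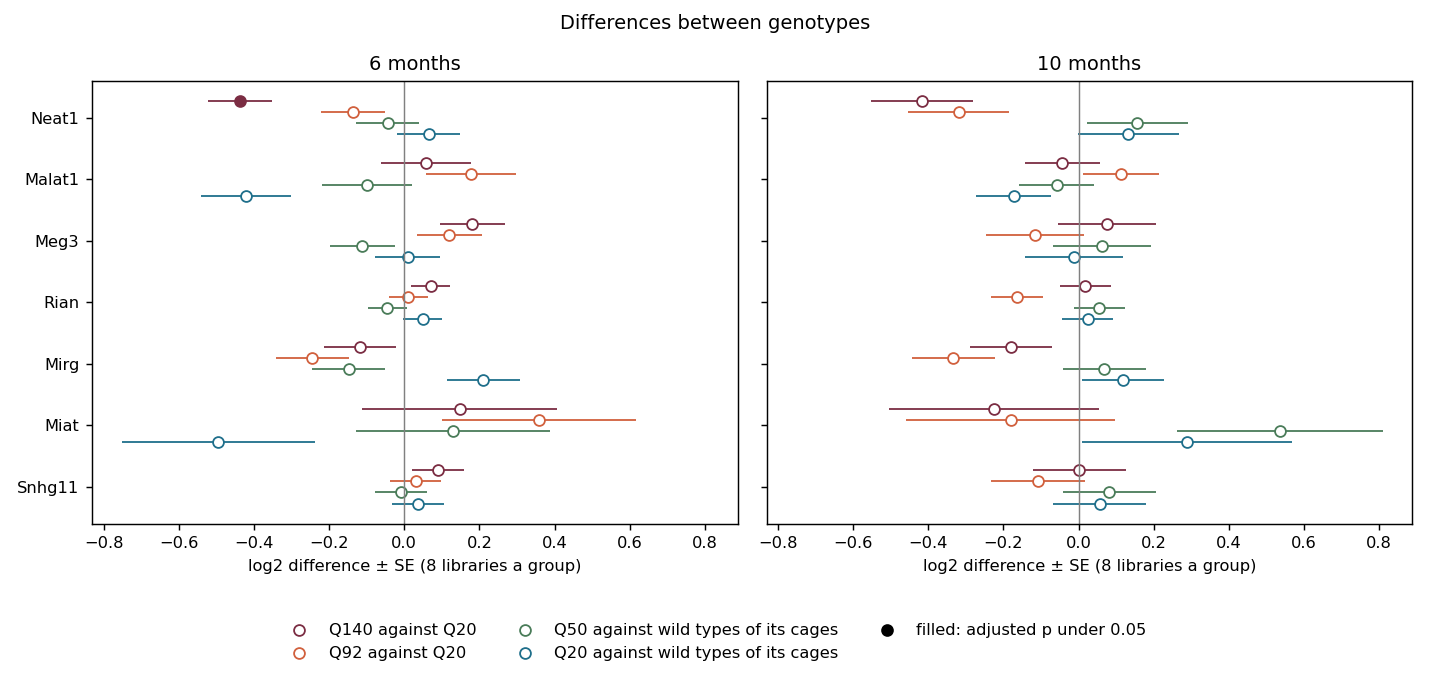
Log2 difference with its standard error (edgeR) for each RNA in 4 genotype comparisons, 6 months left and 10 months right, with 8 libraries a group. Filled points have an adjusted p under 0.05 over all genes. The filled point is Neat1 in Q140 against Q20 at 6 months, at −0.44, and the open point for the same comparison at 10 months lies at −0.42.

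Sex was compared within each age, in fits that held the genotype groups as terms. At 6 months Rian ranged over 604 to 789 CPM in females (median 685) and over 520.1 to 700 CPM in males (median 657), and 22 of 24 females lay above the male mean. The log2 difference was 0.11 ± 0.03 (adjusted p = 0.0482; 1 of 7 members, beside 0.876% of genes), and 19 of 48 fits that left out 1 library called it. At 10 months Rian differed by −0.05 ± 0.04 (0.387). There Mirg was called, with 12.7 to 42.6 CPM in females (median 37.7) and 33.4 to 54.4 CPM in males (median 40.8), and 23 of 24 females lay below the male mean. Its log2 difference was −0.20 ± 0.06 (adjusted p = 0.0481; 1 of 7 members, beside 5.87% of genes), and −0.16 with an adjusted p of 0.00841 without Q92 female 2 (beside 6.71% of genes). Of 48 fits that left out 1 library, 17 called it. At 6 months Mirg differed by 0.04 ± 0.06 (0.928). Choroid plexus markers differed between the sexes too, with a median sum of 35.6 CPM in females and 546 CPM in males at 6 months, and 785 CPM in females and 260.2 CPM in males at 10 months. Their part in these results was not tested.

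Between ages, 3 of 7 members were called, beside 40.6% of 17449 genes, a share near that of the members. Mirg was lower at 10 months, with 12.7 to 54.4 CPM (median 39.5), than at 6 months, with 30.7 to 59.6 CPM (median 42.3), by −0.18 ± 0.04 on the log2 scale (adjusted p = 0.000854). Of 48 libraries at 10 months, 43 lay below the 6-month mean. Malat1 was higher at 10 months, with 429 to 1068 CPM (median 807), than at 6 months, with 405 to 1234 CPM (median 731), by 0.12 ± 0.04 (adjusted p = 0.0205; 38 of 48 libraries above). Rian was lower by −0.06 ± 0.03 (adjusted p = 0.0491; 33 of 48 libraries below), a call that was lost with RLE scaling (0.0562), without the filter on low counts (0.0547), in DESeq2 (0.0523) and in limma (0.0628). Without the far libraries of both ages, Mirg differed by −0.09 (adjusted p = 0.0478) and Meg3 was called at −0.08 (0.00314), which makes 4 of 7 members beside 19% of genes.

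Genes of proteins of the same bodies were also called between ages, beside 40.6% of all genes with all libraries and 19% without the far ones. Protein levels were not measured. Of 22 genes of nuclear speckle proteins 20 were lower and 0 higher at 10 months, with a median of −0.11 beside 0.00017 over all genes. Examples are Srsf4 (−0.14), Srsf2 (−0.13) and U2af2 (−0.10), which all encode splicing factors. Without the far libraries 19 were lower. Of 24 genes of paraspeckle proteins 11 were lower, among them Taf15 (−0.19), Hnrnph3 (−0.17) and Ewsr1 (−0.12), which encode RNA-binding proteins, and 3 were higher. Of 13 small nucleolar RNA host genes 8 were lower, with a median of −0.19, among them Gas5 (−0.19) and Snhg20 (−0.24). These genes were named for their small p-values after these were seen.

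The mitochondrial share of a library, which reflects how counts are divided between mitochondrial and other RNA, was related to the members next. The library that stood apart carried the lowest level of nearly every member. In Q92 female 2 at 10 months Meg3 was at 939 CPM, against 3140 to 4205 CPM (median 4030) in the other 7 libraries of its group, 4.29-fold lower than that median. Snhg11 was at 740.0 CPM there, against a median of 2744 CPM (3.71-fold lower), and Mirg at 12.7 CPM against 40.5 CPM (3.20-fold lower). Neat1 was at 82.0 CPM against 217 CPM (2.64-fold lower) and Malat1 at 429 CPM against 921 CPM (2.14-fold lower). Miat was at 13.5 CPM against 27.8 CPM (2.05-fold lower), and Rian was at 332 CPM against 631 CPM (1.90-fold lower).

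All members but Miat were at the lowest level of the 48 libraries of that age, and 1 other library was lower for Miat. TMM scaling sets the typical gene of a library level with the others, so a shift of all genes could not show in these values. Over 17449 genes the median log2 difference of this library from the other 7 was 0.016, 48.9% of genes lay below, and 8.31% lay more than 1 log2 unit below. Of all genes 0.923% fell further below than Meg3, 1.43% further than Snhg11 and 9.66% further than Rian. Its depth, 38152188 reads, was within the range of the others.

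**Figure D4:**
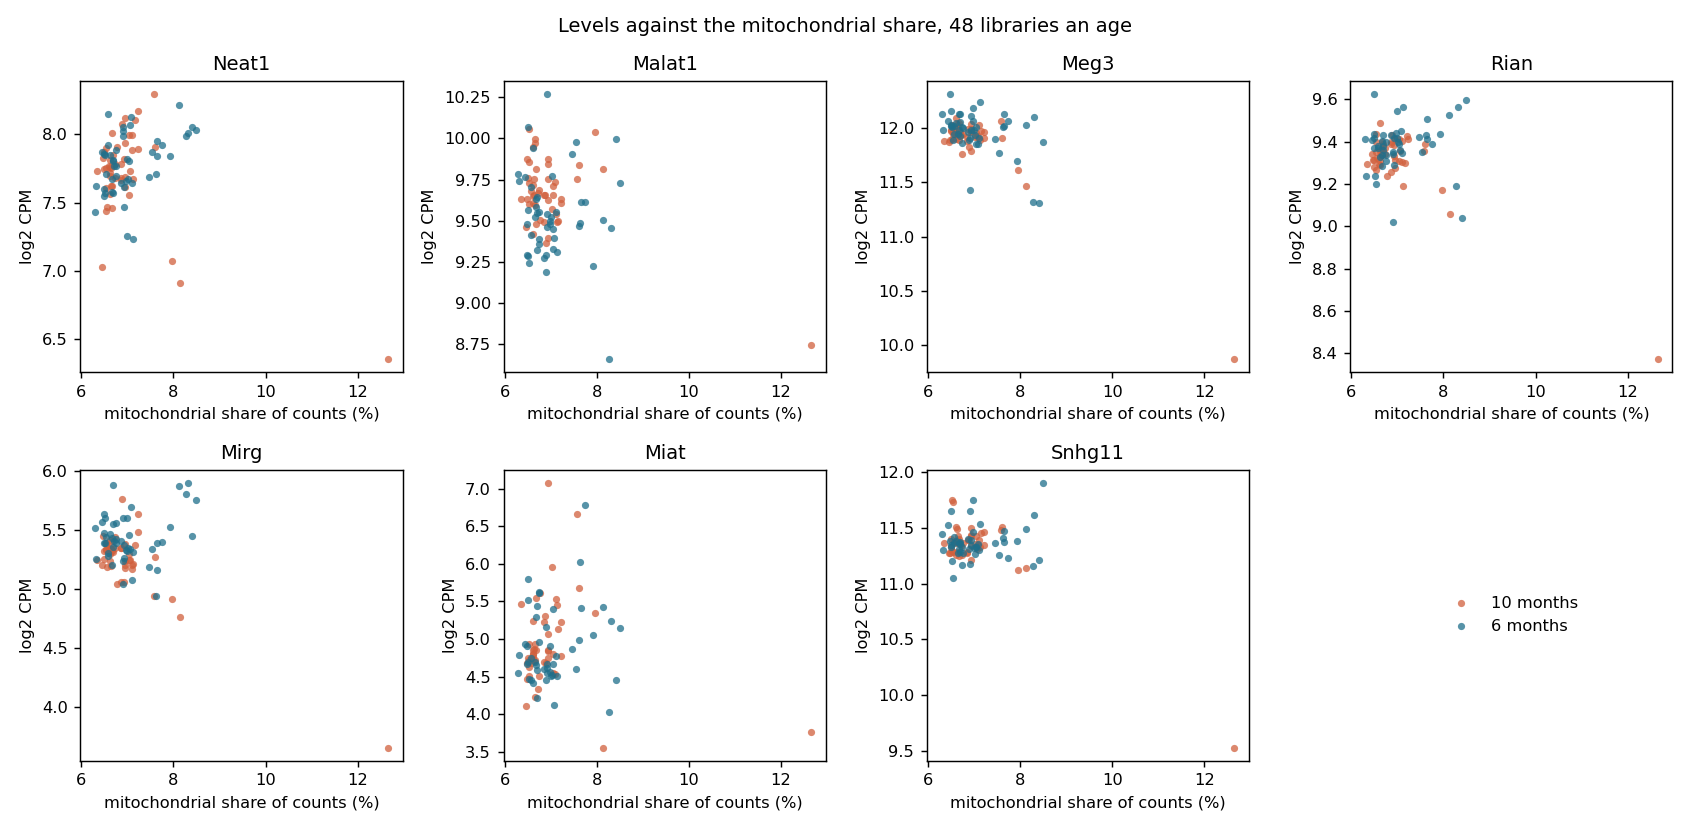
Log2 CPM of each RNA against the mitochondrial share of counts in percent, 1 point a library, orange at 10 months and blue at 6 months. The library at 12.7% is at the bottom of the panels for Neat1, Meg3, Rian, Mirg and Snhg11, and most others lie between 6.30% and 8.50%.

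Over the 48 libraries of an age, 14 correlations were computed, for 7 members at 2 ages, with permutation p-values adjusted over the 14. Pearson's r passed in 8 of them and Spearman's rho in 0. At 10 months Meg3 had r = −0.93 (adjusted p = 0.00042) but rho = −0.19 (0.395), Snhg11 r = −0.87 and rho = −0.03, Rian r = −0.87 and rho = −0.02, and Mirg r = −0.86 and rho = −0.31. Neat1 had r = −0.58 and rho = 0.19, Malat1 r = −0.54 and rho = −0.10, and Miat r = −0.18 and rho = 0.26. Without the 2 libraries farthest from the median share, r was −0.29 for Meg3, −0.08 for Snhg11, −0.10 for Rian, −0.32 for Mirg, 0.19 for Neat1, 0.07 for Malat1 and 0.46 for Miat. None of the negative relations passed then, and Miat did (adjusted p = 0.0328 for r). After the mean of each group and sex was taken away from all 48 libraries, Mirg passed by rank too, with rho = −0.40 (adjusted p = 0.0233), and the other members did not pass by rho. The permutation took no account of the means taken away, so its p-values are too small there and this pass is not secure.

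At 6 months Neat1 had r = 0.42 and rho = 0.38 (adjusted p = 0.00674 for r and 0.126 for rho), and Meg3 had r = −0.44 and rho = −0.32 (0.00674 and 0.148). Without the 2 farthest libraries r was 0.35 for Neat1 (adjusted p = 0.106) and −0.32 for Meg3 (0.116). After the mean of each group and sex was taken away, both passed by r and by rho, Neat1 with r = 0.54 and rho = 0.44 and Meg3 with r = −0.53 and rho = −0.44. Here too the permutation took no account of those means, so its p-values are too small. The other 5 members did not pass, with r from −0.08 for Malat1 to 0.24 for Mirg.

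A slope on the share within group and sex, was then fitted in edgeR over all genes. At 6 months Neat1 rose by 0.15 ± 0.04 log2 units per percentage point (adjusted p = 0.00141) and Meg3 fell by 0.15 ± 0.04 (0.00278), which makes 2 of 7 members beside 50.2% of genes. Without the 11 far libraries 0 members were called beside 12.6% of genes. At 10 months 6 of 7 were called, all negative, beside 59% of genes: Meg3 −0.32, Snhg11 −0.28, Mirg −0.24, Neat1 −0.19, Malat1 −0.15 and Rian −0.14. Without Q92 female 2, Meg3 (−0.13 ± 0.04, adjusted p = 0.0116) and Mirg (−0.16 ± 0.05, 0.0184) were called beside 23.9% of genes, and Neat1 was at 0.0060 ± 0.10 (0.974). Without the 2 extreme shares neither was called (adjusted p = 0.255 for Meg3 and 0.167 for Mirg), while Miat was, at 0.73 (0.0101). At these shares of all genes a called slope is not particular to the members.

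The slopes of the 2 ages differed for 5 of 7 members, beside 41.3% of genes, and for 1 of 7 without Q92 female 2, beside 14% of genes. That 1 was Mirg, with a slope lower at 10 than at 6 months by −0.25 (adjusted p = 0.0269). Without the far libraries of both ages 0 of 7 were called, beside 1.64% of genes, with 1 at an unadjusted p under 0.05 (Rian). The Mirg slope was then −0.16 at 10 months and −0.14 at 6 months, where it was 0.09 with all libraries, and the difference was −0.02 (adjusted p = 0.942). Cell type markers moved with the share as well. At 6 months 9 of 12 oligodendrocyte markers had a positive slope, with a median of 0.17 per percentage point beside 0.010 over all genes. At 10 months 0 of 12 were called. Of all genes 50.2% were called at 6 months and 59% at 10 months, in either direction. These values hold all libraries, with the far ones and Q92 female 2 among them. Of the 22 genes of nuclear speckle proteins, 20 were called with a negative slope at 10 months, beside 59% of all genes called, and 6 without Q92 female 2, beside 23.9%. Their part in the members' slopes was not tested.

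**Figure D5:**
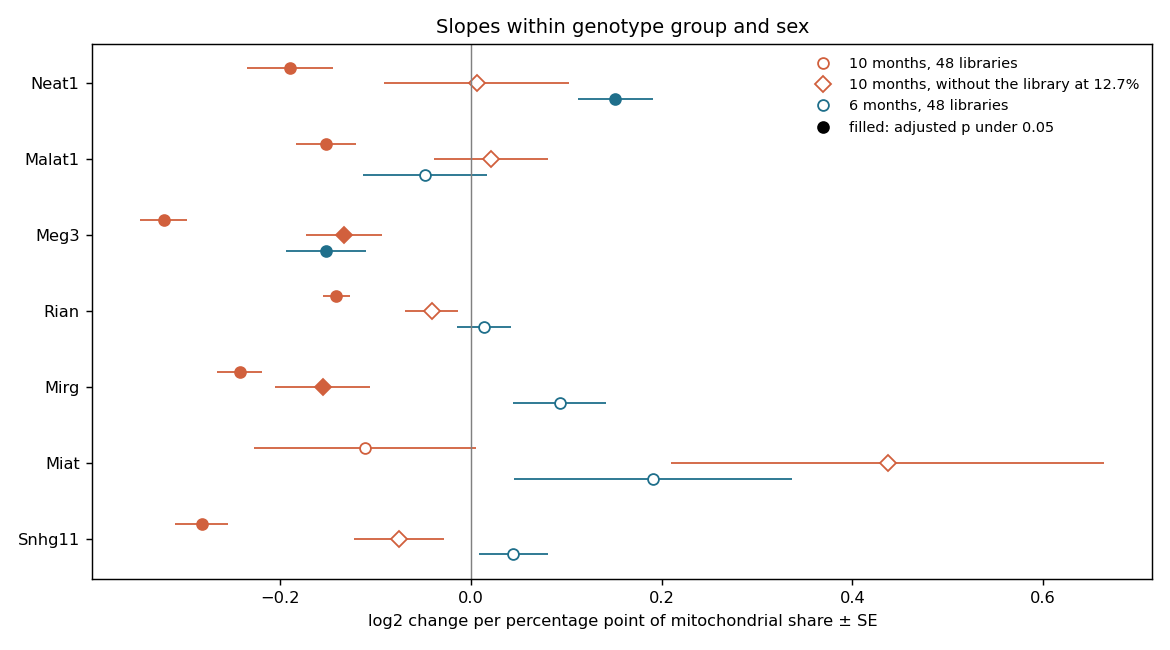
Log2 change per percentage point of mitochondrial share with its standard error (edgeR, within genotype group and sex), for each RNA at 10 months with all 48 libraries (orange circles) and without the library at 12.7% (diamonds), and at 6 months (blue circles). Filled points have an adjusted p under 0.05 over all genes. The slope of Neat1 is −0.19 at 10 months, near 0 without that library, and 0.15 at 6 months.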

How the data were processed

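RNA was harvested with the Qiagen miRNeasy kit and enriched for library construction, per the labels' protocols. CASAVA 1.8.2 is named in the submitters' processing notes. Aligner, counting tool, build, annotation and strand were not given in the sources used here. The authors deposited 2 tables over 39179 Ensembl genes and 96 libraries. One holds expected counts per gene, as deposited by the authors, of which 81.6% are whole numbers. The other holds FPKM per gene, deposited by the authors. Gene symbols were matched through the GENCODE M21 annotation for 37607 identifiers.

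Expected counts were rounded and tested with edgeR 4.0.16 (TMM scaling, filterByExpr with a minimum count of 10, quasi-likelihood test, Benjamini-Hochberg adjustment over all genes, called under 0.05), 1 fit for each age with genotype group and sex as terms. Slopes on the mitochondrial share were added to that fit, and a fit of all 96 libraries compared the ages. Standard errors were taken from the test statistic. CPM are counts scaled to a common library size with TMM factors. FPKM were tested with limma 3.58.1 on log2(FPKM + 0.1), so a fold change there understates low genes, and DESeq2 1.42.0 was run on the counts. R was 4.3.3 and Python 3.11.15. Correlations with the share used 100000 permutations and were two-sided. The procedure was tested on simulated data.

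Replicate numbers were checked for pairing: 24 of 64 pairs of same-numbered libraries had deviations correlated over 0.1, from −0.49 to 0.88, and in 0 comparisons did all pairs of both sexes, so the numbers were not taken to pair libraries. All 4 male pairs of Q20 with WT20 at 6 months did, from 0.14 to 0.88. A library was called far when its leading principal component lay over 3 median absolute deviations from the median.

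The members and all lists were chosen with earlier results of these data known. Genes named beside the members were the 3 most like each member by Pearson's r within group and sex, and the members of each list with the smallest p in Q140 against Q20. Genes named otherwise were chosen after their values were seen. One gene that this rule names is not reported here.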

Additional observations from a re-analysis of the deposited data

Results flagged for a closer look

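Each RNA and the mitochondrial share were examined in each group of 8 libraries of 1 genotype and age, 96 groups of values in all, for a highest or lowest library that lay far from the rest. In 21 of them it did, and chance gives about 1 in 20. Of these, 7 came from Q92 female 2 at 10 months: its mitochondrial share was 12.7%, against 6.50% to 7.96% in the other 7 libraries, and its levels were 939 CPM for Meg3, 740.0 CPM for Snhg11, 429 CPM for Malat1, 332 CPM for Rian, 13.5 CPM for Miat and 12.7 CPM for Mirg.

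Meg3 had the lowest library apart from the rest in 5 other groups. It was at 3314 CPM in Q140 female 4 at 6 months (others 4161 to 4826), at 2557 CPM in Q20 male 4 at 6 months (others 3779 to 4480) and at 2531 CPM in WT20 male 4 at 6 months (others 3710.2 to 4274). It was at 2819 CPM in WT50 female 2 at 10 months (others 3771 to 4282) and at 3541 CPM in WT20 female 2 at 10 months (others 3824 to 4017). In that last library Snhg11 was also lowest, at 2375 CPM (others 2496 to 2601). Meg3 was highest in Q92 female 1 at 6 months at 5074 CPM (others 3703 to 4232), where Rian was also highest at 789 CPM (others 624 to 681).

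Neat1 was at 131 CPM in Q140 female 1 at 10 months (others 173 to 220.5), on the side of the Q140 difference, and leaving that library out moved no call. Malat1 was at 405 CPM in Q20 male 4 at 6 months (others 582 to 802), the library that was low for Meg3. Rian was at 520.1 CPM in Q50 male 2 at 6 months (others 647 to 776). Miat was at 135 CPM in Q50 female 2 at 10 months (others 26.3 to 51.4), the library with the highest sum of brainstem and deep nuclei markers. Snhg11 was at 3389 CPM in Q50 female 1 at 10 months (others 2585 to 2911). The mitochondrial share was 8.31% in WT50 female 1 at 6 months (others 6.32% to 7.08%).

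The slope on the mitochondrial share differed between 10 and 6 months, by the test of the difference in edgeR, for 5 members: Neat1 by −0.34, Mirg by −0.34, Snhg11 by −0.33, Meg3 by −0.17 and Rian by −0.16 log2 units per percentage point. Without Q92 female 2 this held for Mirg, at −0.25. Without the far libraries of both ages it held for 0 members, and the difference for Mirg was −0.02 (adjusted p = 0.942).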

How the results depend on the processing

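Neat1 in Q140 against Q20 at 6 months was called under every alternative run. The counts of members called for Q92, Q50 and Q20 did not move. The numbers shared by libraries were not taken to pair them. With the number as a replicate block the 6-month trend call went to 0. The sex calls at both ages went to 0 too. The sex term of that fit compares only the first-numbered females with the first-numbered males, so it cannot test those calls. Other counts of members called did not move with the block.

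At 6 months, females against males went from 1 to 0 with RLE scaling, no filter, the library number, no far libraries or the mitochondrial covariate, and the trend went to 0 with the same choices except RLE and with FPKM. The slope on the share went from 2 to 0 without far libraries and to 1 without the 2 extreme shares. At 10 months, Q140 against Q20 went from 0 to 1 without the far library and to 2 with the covariate. The sex count went from 1 to 0 with no filter, FPKM, no mitochondrial genes or the library number, and the trend from 0 to 1 with DESeq2, without the far library or with the covariate. The 10-month slope count went from 6 to 2 without the far library and to 1 (Miat, not among the 6) without the 2 extreme shares, the age count from 3 to 1 with FPKM, the slope difference from 5 to 1 without Q92 female 2 and to 0 without the far libraries, an alternative chosen after seeing the data, and the share correlations from 8 to 1. The causes were not tested.

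Single slopes changed sign. At 6 months Mirg went to −0.14 and Malat1 from −0.05 to 0.0027 without the far libraries, and Malat1 to 0.014 in limma on FPKM. At 10 months Malat1 went to 0.021, Neat1 to 0.0060 and Miat to 0.44 without the far library. Without the 2 extreme shares of that age Rian went to 0.00059, Neat1 to 0.16 and Miat to 0.73. The difference of slopes for Meg3 became 0.016. Over fits that left out 1 library, the 10-month slope ran from −0.16 to 0.021 for Malat1 and from −0.20 to 0.0060 for Neat1. Fits that left out 1 library gave 0 to 1 members for sex at either age, for Q140 at 10 months and for the trend at 10 months, 0 to 2 for the trend at 6 months, 2 to 3 for the slope at 6 months and 2 to 6 at 10 months. The 10-month ranges for Q140, the trend and the slope were set by Q92 female 2.

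Miat, at a mean of 0.0033% of counts, and Mirg, at 0.0041%, have the fewest reads, yet Mirg varied no more than Malat1.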
